A study of Mus musculus with 4 samples.

Results

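Transcript levels of 10 skeletal genes were followed across 4 processes of the mouse embryonic face. The genes were taken by name from the 43346 genes measured and comprise the transcription factor genes Runx1, Runx2, Runx3 and Sp7, the cartilage matrix genes Acan, Hapln1, Matn1 and Matn4, and the mineralization genes Alpl and Ibsp, with collagens left out. RNA-seq was performed on freshly dissected tissue of wild-type (WT) embryos at e11.5, with 1 library for each of the lateral and medial nasal, the maxillary and the mandibular processes, and the labels name no treatment. The lateral and medial nasal processes flank the nasal pit, whereas the maxillary and mandibular processes are the upper and lower parts of the first pharyngeal arch. All 4 libraries came from whole tissue of mixed cell types, and the tissue label of the medial nasal library carries the abbreviation LNP in brackets, although its title names the medial nasal process. The sources used here give neither the strain nor the number of embryos behind each library. Because each process had 1 library, differences between processes could not be tested against the variation between embryos, and all intervals given here are 95% intervals that cover counting error only, exact for levels and ratios and approximate for log2 differences.

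Runx proteins bind DNA together with the partner Cbfb. Runx2 is required for osteoblasts to form and acts upstream of Sp7 (osterix), Runx1 is best known from blood stem cell formation and is also active in skeletal progenitors, and Runx3 is known from sensory neurons, T cells and maturing chondrocytes. Chondrocytes secrete aggrecan (Acan), which link protein (Hapln1) fastens to hyaluronan, and matrilins connect the fibrils of this matrix. Osteoblasts begin mineral deposition with tissue-nonspecific alkaline phosphatase (Alpl), which removes the inhibitor pyrophosphate, and later secrete bone sialoprotein (Ibsp). At this stage the facial mesenchyme, most of it from the neural crest, is largely undifferentiated.

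The level of a gene is its CPM, the number of its counts per 1000000 library counts after TMM normalization. Ranks of genes by abundance use TPM, which corrects for transcript length. Ratios of counts of a gene to those of another within a library lack that correction. They are compared between libraries and do not give the relative abundance of the genes. The libraries held between 13216161 and 16163874 counts, so that the 3 counts that a count of 0 still allows correspond to 0.185 to 0.223 CPM. Genes of known position did not go against the nasal, maxillary and mandibular labels, but none of those used tells the lateral from the medial nasal process. The abbreviation LNP on the medial nasal library was thus left unresolved. The mandibular gene Hand2 stood at 103 CPM in the mandibular library and at 0 to 1.32 CPM in the other 3, the frontonasal gene Alx1 at 267 and 266 CPM in the nasal libraries against 65.9 and 39.0 CPM in the maxillary and mandibular libraries, and the oral gene Barx1 at 15.3 and 7.76 CPM in the nasal libraries against 119 and 120.0 CPM in the first arch libraries. Markers of other tissues differed between libraries. For comparison, 9.69% of the 12406 genes that reached 5 CPM differed 2-fold or more. Of 13 brain neuroepithelium markers, 9 of the 10 that reached 5 CPM differed 2-fold or more, the exception being Nes, which made up most of the summed level in every library. Without Nes the other 12 markers summed to 129 CPM (medial nasal), 56.2 CPM (lateral nasal), 34.7 CPM (maxillary) and 16.0 CPM (mandibular), and 3 of them, including Otx2 and Lhx5, stood at 0 in the mandibular library. Of 15 sensory neuron markers, 8 of the 10 that reached 5 CPM differed by that much, with sums of 453 CPM (medial nasal), 275 CPM (lateral nasal), 292 CPM (maxillary) and 160 CPM (mandibular), and of 17 epithelial markers 10 did, with sums of 556 CPM (lateral nasal), 495 CPM (medial nasal), 451 CPM (maxillary) and 353 CPM (mandibular). Of 11 myogenic markers, all 10 that reached 5 CPM differed by that much, with sums of 822 CPM (mandibular), 287 CPM (maxillary), 48.4 CPM (lateral nasal) and 25.4 CPM (medial nasal).

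To show what lies at the starts of these genes, the 250 bases before each RefSeq transcription start (GRCm38.p6) were searched for TGTGGT, the core of the Runx binding motif, and for ACAATG, a SOX core, on both strands. No match of one motif overlapped a match of the other. A window was found for 9 of the 10 genes, 13 windows in all, and Sp7 had none. TGTGGT or its complement ACCACA occurred in 4 of the 13 windows, those of Runx2, Hapln1, Matn1 and the first start of Runx3, against 14.0% of 32851 windows of all genes, and ACAATG occurred in 1, that of Ibsp, against 10.7%. The 30 bases around each match are printed because they place the Runx letters at 2 Runx genes and at 2 matrix genes of contrasting level, and the SOX letters at a bone gene. Capitals mark the motif, each line runs 5′ to 3′ on the strand of the gene, and the positions are chr17:44814690-44814719 (minus strand) for Runx2, chr4:135120503-135120532 (plus strand) for Runx3, chr13:89540464-89540493 (plus strand) for Hapln1, chr4:130944239-130944268 (plus strand) for Matn1 and chr5:104299089-104299118 (plus strand) for Ibsp.
Runx2: gtgaggtcacaaACCACAtgattctgtctc
Runx3: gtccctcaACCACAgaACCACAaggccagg
Hapln1: tgggtgggggctTGTGGTtgggcctgctgc
Matn1: caaaggggccctTGTGGTcagctgcctcta
Ibsp: caattaaatcccACAATGcaagcctcttgg
The match of Runx2 began 80 bases before the start, those of Runx3 134 and 126, that of Hapln1 160 and that of Matn1 134 bases before it. In the GENCODE M21 annotation, where the first exons of Runx2 and Hapln1 begin further upstream, the letters of these genes lie in the 5′ UTR. These are matches of letters and no binding was measured. Among the genes that hold the Runx letters, Runx2 was the most abundant of the 10 genes by deposited TPM in all 4 libraries, whereas Matn1 had 0 counts in each.

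Runx2 was the most abundant Runx gene per length and was highest in the first arch. Runx2 (ENSMUSG00000039153, chromosome 17, 44495987 to 44814797 on the minus strand of GRCm38) stood at 61.6 CPM (maxillary), 48.8 CPM (mandibular), 35.5 CPM (lateral nasal) and 33.1 CPM (medial nasal), from 935, 658, 577 and 448 counts. Both first arch libraries lay above both nasal libraries. The maxillary level was 1.86-fold (1.66 to 2.09) the medial nasal level and 1.26-fold (1.14 to 1.4) the mandibular level, while the lateral and medial nasal levels, 1.07-fold (0.946 to 1.22) apart, could not be separated at this depth. In TPM the maxillary level was 17.9 and the medial nasal level 8.34, which is 2.15-fold.

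TPM, unlike CPM, also divides by transcript length. RSEM estimates a mean transcript length for each gene, weighted by the abundance of its isoforms. The annotation used by the authors held 13 Runx2 transcripts, which are 408 to 6463 bases long in the later release GENCODE M21. The estimated mean length was 2989 bases (maxillary), 3271 (mandibular), 3594 (lateral nasal) and 3519 (medial nasal). The 2 libraries with more Runx2 thus also had shorter estimated transcripts. These lengths come without an error and the isoform estimates behind them were not analysed here. On the opposite strand within Runx2, the antisense gene Runx2os1, which shares exonic positions with it, had at most 10 counts in a library, and of the distinct 50-base stretches of Runx2 transcripts 0.475% also occur in transcripts of other genes.

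**Figure D1:**
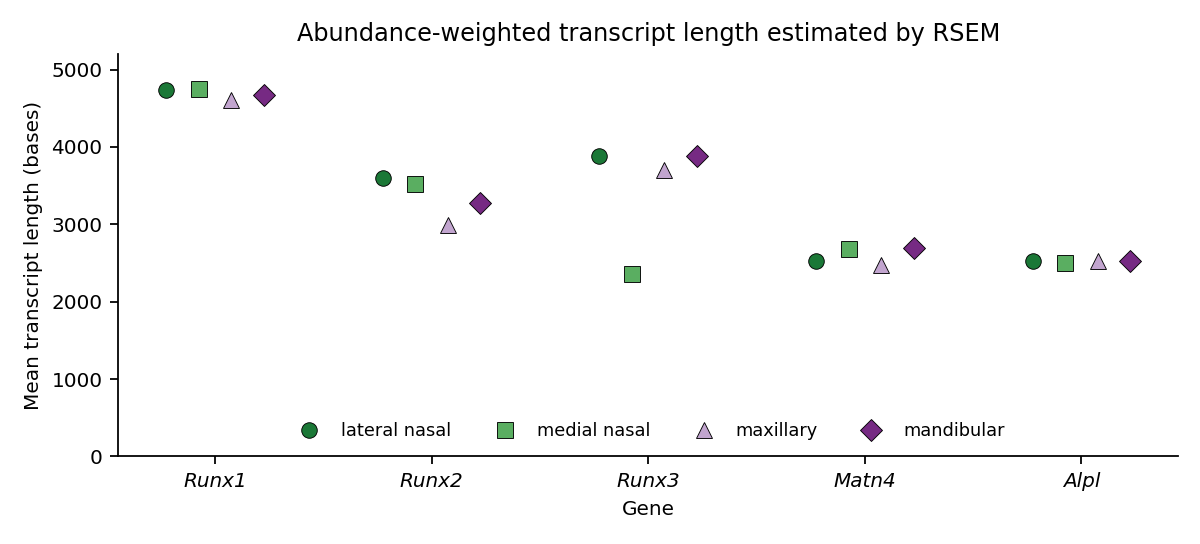
Mean transcript length in bases, weighted by isoform abundance as RSEM estimated it, for the 5 genes with several annotated transcripts in each of the 4 libraries (1 point per library, no error available). The Runx2 points run from 2989 bases in the maxillary to 3594 in the lateral nasal library, and Runx3 stands at 2352 bases in the medial nasal library against 3702 to 3884 in the others.

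Runx1 had a different order of levels. Runx1 (ENSMUSG00000022952, chromosome 16, 92601466 to 92826149, minus strand) reached 28.7 CPM (lateral nasal), 27.0 CPM (medial nasal), 26.4 CPM (mandibular) and 17.7 CPM (maxillary), from 467, 365, 356 and 269 counts. The first 3 libraries could not be told apart by counting error, and the maxillary library lay below all of them, with the mandibular level 1.49-fold (1.27 to 1.75) and the lateral nasal level 1.62-fold (1.39 to 1.89) the maxillary level. Because Runx1 is also a blood lineage gene, leukocyte markers were read beside it. Their sums over 15 genes were 62.8 CPM (lateral nasal), 68.4 CPM (medial nasal), 62.9 CPM (mandibular) and 65.1 CPM (maxillary). None of the 5 markers at 5 CPM or more differed 2-fold, against 9.69% of all genes at that level. So few markers cannot be told apart from that share. No marker stood at 0 in any library. Coro1a, at 18.2 CPM, Cd68 and C1qa were highest in the maxillary library. Ptprc, Cx3cr1, Adgre1, C1qc, Mrc1 and Laptm5 were, like Runx1, lowest there. The part of leukocytes in the Runx1 level was not tested.

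The ratio of Runx2 to Runx1 within the same library, which no scaling between libraries can change, was highest in the maxillary process. Runx1 was lowest there, with the mandibular level 1.49-fold the maxillary one, while the maxillary Runx2 level was 1.26-fold the mandibular one. The ratio thus depends on both genes. There were 3.48 Runx2 counts per Runx1 count (3.03 to 4.0) in the maxillary, 1.85 (1.62 to 2.11) in the mandibular, 1.24 (1.09 to 1.4) in the lateral nasal and 1.23 (1.07 to 1.41) in the medial nasal library. The maxillary and mandibular intervals overlapped neither each other nor those of the nasal libraries. In TPM, Runx2 made up the following shares of the summed Runx level, 82.5% (maxillary), 71.2% (mandibular), 60.8% (lateral nasal) and 59.2% (medial nasal), of sums of 21.7, 18.6, 14.6 and 14.1 TPM.

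**Figure D2:**
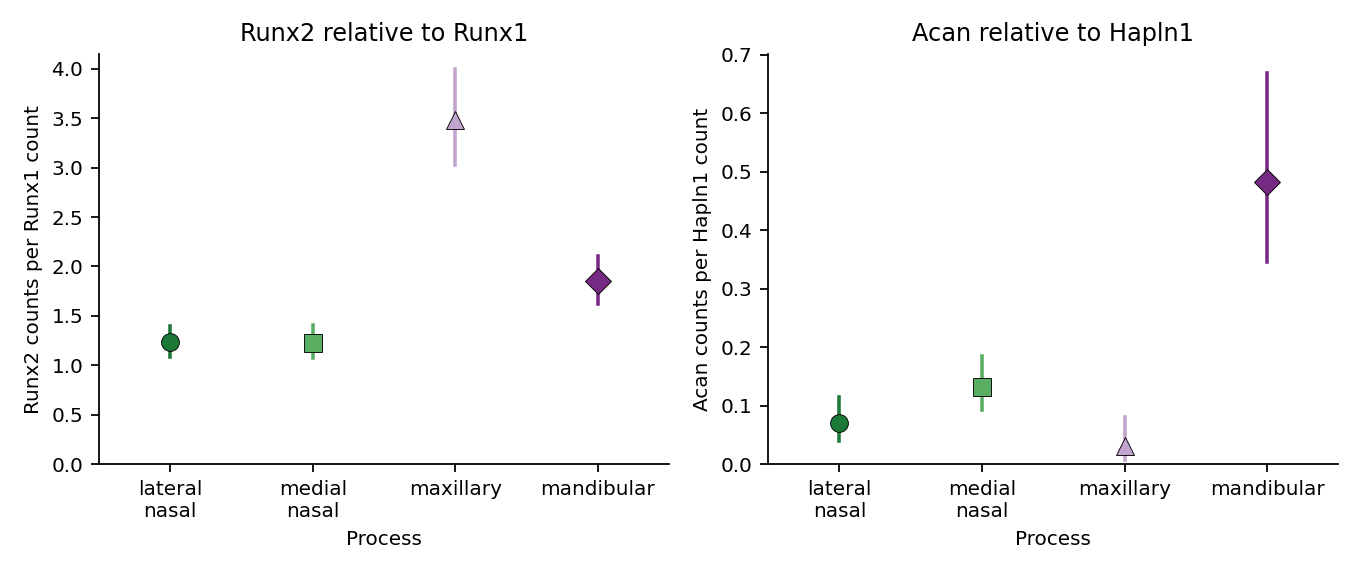
Counts of Runx2 per count of Runx1 (left) and of Acan per count of Hapln1 (right) within each of the 4 libraries, with exact 95% counting intervals as lines. The Runx2 ratio is 3.48 in the maxillary library against 1.23 to 1.85 in the others, and the Acan ratio is 0.483 in the mandibular library against 0.0308 to 0.133.

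Runx3 was a minor member of the family in every process. Runx3 (ENSMUSG00000070691, chromosome 4, 135120652 to 135177990, plus strand) had 34 counts or 2.24 CPM (maxillary), 27 counts or 2.0 CPM (medial nasal), 24 counts or 1.78 CPM (mandibular) and 23 counts or 1.42 CPM (lateral nasal). No neighbours in this order differed beyond counting error, nor did the maxillary level differ from the lateral nasal level (1.58-fold, 0.905 to 2.81). Runx3 made up 2.15 to 5.47% of the summed Runx TPM, a range set in part by its estimated transcript length of 2352 bases in the medial nasal library and 3702 to 3884 bases in the others. Its deposited TPM lay below the interval deposited with it in all 4 libraries, so the per-length level of Runx3 is uncertain.

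Sp7, the osteoblast factor downstream of Runx2, was present at low levels in all 4 processes. Sp7 (ENSMUSG00000060284, chromosome 15, 102356606 to 102367182, minus strand) stood at 6.09 CPM (mandibular), 5.07 CPM (maxillary), 4.31 CPM (lateral nasal) and 4.07 CPM (medial nasal), from 82, 77, 70 and 55 counts. No neighbours in this order differed beyond counting error, and the mandibular level was 1.5-fold (1.05 to 2.15) the medial nasal level. Per Runx2 count there were 0.125 Sp7 counts (0.0978 to 0.157) in the mandibular, 0.0824 (0.0644 to 0.104) in the maxillary, 0.121 (0.0933 to 0.156) in the lateral nasal and 0.123 (0.0910 to 0.163) in the medial nasal library. The lowest of these ratios was in the maxillary library, where Runx2 was highest, and its interval overlapped the other 3.

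Genes for partners of the Runx proteins were read beside the Runx genes. Among 18 such genes, 16 reached 5 CPM in at least 1 library. Of these, 0 differed 2-fold between the highest and the lowest library, against 9.69% of the 12406 genes that reached 5 CPM. A count of 0 among 16 genes cannot be told apart from that share. Cbfb, the shared DNA-binding partner, stood at 182 CPM (mandibular), 159 CPM (lateral nasal), 150.0 CPM (maxillary) and 139 CPM (medial nasal), a spread of 1.31-fold (1.23 to 1.39). The corepressor genes Runx1t1, at 120.0 CPM in the mandibular against 60.7 CPM in the maxillary process, and Tle2, at 17.7 CPM in the mandibular against 8.86 CPM in the lateral nasal process, came closest to the threshold. The repressor gene Trps1 was, like Runx2, highest in the maxillary process, at 724 CPM there, 443 CPM (mandibular), 403 CPM (medial nasal) and 378 CPM (lateral nasal).

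The 3 detected cartilage matrix genes were less abundant than Runx1 and Runx2 by TPM in every library, and their highest and lowest libraries were further apart. Acan (ENSMUSG00000030607, chromosome 7, 79053483 to 79115099, plus strand) had 57 counts or 4.23 CPM (mandibular), 40 counts or 2.96 CPM (medial nasal), 17 counts or 1.05 CPM (lateral nasal) and 4 counts or 0.263 CPM (maxillary). The mandibular level was 16.1-fold (5.94 to 61) the maxillary level, whereas the mandibular and medial nasal levels were 1.43-fold (0.939 to 2.20) apart and could not be separated. The fold over the maxillary library rests on 4 counts there. By TPM Acan did not exceed 0.50 in any library and was below Runx1, Runx2, Sp7, Hapln1, Matn4 and Alpl in each.

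Matn4, a matrilin of cartilage and other tissues, shared the order of Acan. Matn4 (ENSMUSG00000016995, chromosome 2, 164389393 to 164405160, minus strand) had 69 counts or 5.12 CPM (mandibular), 38 counts or 2.81 CPM (medial nasal), 25 counts or 1.54 CPM (lateral nasal) and 17 counts or 1.12 CPM (maxillary). The mandibular level was 1.82-fold (1.21 to 2.79) the medial nasal and 4.57-fold (2.66 to 8.30) the maxillary level, and the lateral nasal and maxillary levels could not be separated (1.37-fold, 0.713 to 2.71). Rbpjl, which overlaps Matn4 exons on the opposite strand, had at most 3 counts in a library. The mandibular library, highest for Acan and Matn4, also had the largest sum of myogenic markers, while the medial nasal library, next to it for both, had the smallest. What part muscle precursors had in these levels was not tested, and in RNA from whole tissue fewer cells of a type and less RNA per cell cannot be told apart.

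Hapln1 was highest in the nasal processes and was the most abundant cartilage gene of the set by TPM in all but the mandibular library, where it stood at 1.51 TPM and Matn4 at 1.71 TPM. Hapln1 (ENSMUSG00000021613, chromosome 13, 89539796 to 89611652, plus strand) stood at 22.2 CPM (medial nasal), 14.8 CPM (lateral nasal), 8.76 CPM (mandibular) and 8.56 CPM (maxillary), from 301, 241, 118 and 130 counts. The medial nasal level was 1.5-fold (1.26 to 1.78) the lateral nasal level and 2.60-fold (2.11 to 3.22) the maxillary level, and the mandibular and maxillary levels did not differ beyond counting error (1.02-fold, 0.791 to 1.32). The medial nasal library also had the largest sums of brain neuroepithelium and sensory neuron markers, and both nasal libraries had larger sums of neuroepithelium and epithelial markers than either first arch library. Several single markers did not follow these sums, among them Nefl, Nefm, Krt5, Krt14 and Trp63, which were highest in the maxillary library. The part of brain, neuronal and epithelial tissue in the Hapln1 level was not tested. The lateral nasal level was 1.69-fold (1.35 to 2.13) the mandibular and 1.73-fold (1.39 to 2.16) the maxillary Hapln1 level.

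The ratio of Acan to Hapln1 counts differed between libraries. There were 0.483 Acan counts per Hapln1 count (0.346 to 0.668) in the mandibular, 0.133 (0.0931 to 0.185) in the medial nasal, 0.0705 (0.0404 to 0.115) in the lateral nasal and 0.0308 (0.00826 to 0.0807) in the maxillary library. The mandibular interval lay above the other 3, which adjoin or overlap each other in this order. The ratio of Matn4 to Acan varied over a narrower range, with 1.21 Matn4 counts per Acan count (0.840 to 1.75) in the mandibular, 0.95 (0.593 to 1.52) in the medial nasal, 1.47 (0.763 to 2.90) in the lateral nasal and 4.25 (1.39 to 17.4) in the maxillary library.

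Matn1, the matrilin of mature hyaline cartilage, was not detected. Matn1 (ENSMUSG00000040533, chromosome 4, 130944385 to 130955475, plus strand) had 0 counts in all 4 libraries, which allows up to 0.185 to 0.223 CPM. The other matrilin genes were detected. Matn2, a matrilin of many connective tissues, stood at 14.2 CPM (maxillary), 9.98 CPM (medial nasal), 9.29 CPM (lateral nasal) and 6.24 CPM (mandibular), so that the maxillary library was highest for Matn2 and lowest for Matn4. Matn3 remained at 0.520 to 0.985 CPM.

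Alpl was the only mineralization gene of the set above 1 CPM and was highest in the lateral nasal process. Alpl (ENSMUSG00000028766, chromosome 4, 137741733 to 137796384, minus strand) stood at 18.7 CPM (lateral nasal), 10.2 CPM (medial nasal), 9.80 CPM (mandibular) and 8.96 CPM (maxillary), from 304, 138, 132 and 136 counts. The lateral nasal library lay apart from the other 3, at 1.83-fold (1.5 to 2.26) the medial nasal and 2.09-fold (1.70 to 2.58) the maxillary level. The remaining 3 could not be separated from each other. The lateral nasal library also had the largest sum of epithelial markers, 556 CPM against 353 to 495 CPM in the other 3. Several single epithelial markers, among them Krt5, Krt14 and Trp63, were highest in the maxillary library instead. What part epithelium had in the Alpl level was not tested. The other 3 alkaline phosphatase genes, Alpi, Akp3 and Alppl2, had 0 counts in all libraries except for Akp3 at 0.0659 CPM in the maxillary one. The TPM deposited for Alpl lay below its own deposited interval in the medial nasal, maxillary and mandibular libraries and at its lower bound in the lateral nasal one, so that its rank among the genes per length is uncertain, whereas its CPM do not depend on length.

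The order of Alpl was not that of the osteoblast factors. Per Runx2 count there were 0.527 Alpl counts (0.457 to 0.606) in the lateral nasal, 0.308 (0.253 to 0.374) in the medial nasal, 0.201 (0.165 to 0.242) in the mandibular and 0.145 (0.121 to 0.174) in the maxillary library. The intervals of the lateral and medial nasal libraries overlapped no other, while those of the mandibular and maxillary libraries overlapped each other. The mean levels of Runx2 and Sp7 were higher in the first arch libraries, where Alpl did not exceed its medial nasal level.

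Ibsp, a product of mature osteoblasts, was at the limit of detection. Ibsp (ENSMUSG00000029306, chromosome 5, 104299171 to 104311469, plus strand) had 2 counts in the maxillary library, 1 in the lateral nasal library and 0 in the medial nasal and mandibular libraries. The other members of its family of acidic bone and tooth phosphoproteins, Spp1, Dmp1, Dspp and Mepe, all remained below 1 CPM as well. Spp1 (osteopontin) was the highest of them, at 0.790 CPM in the maxillary process, and Dspp and Mepe had 0 counts throughout.

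**Figure D3:**
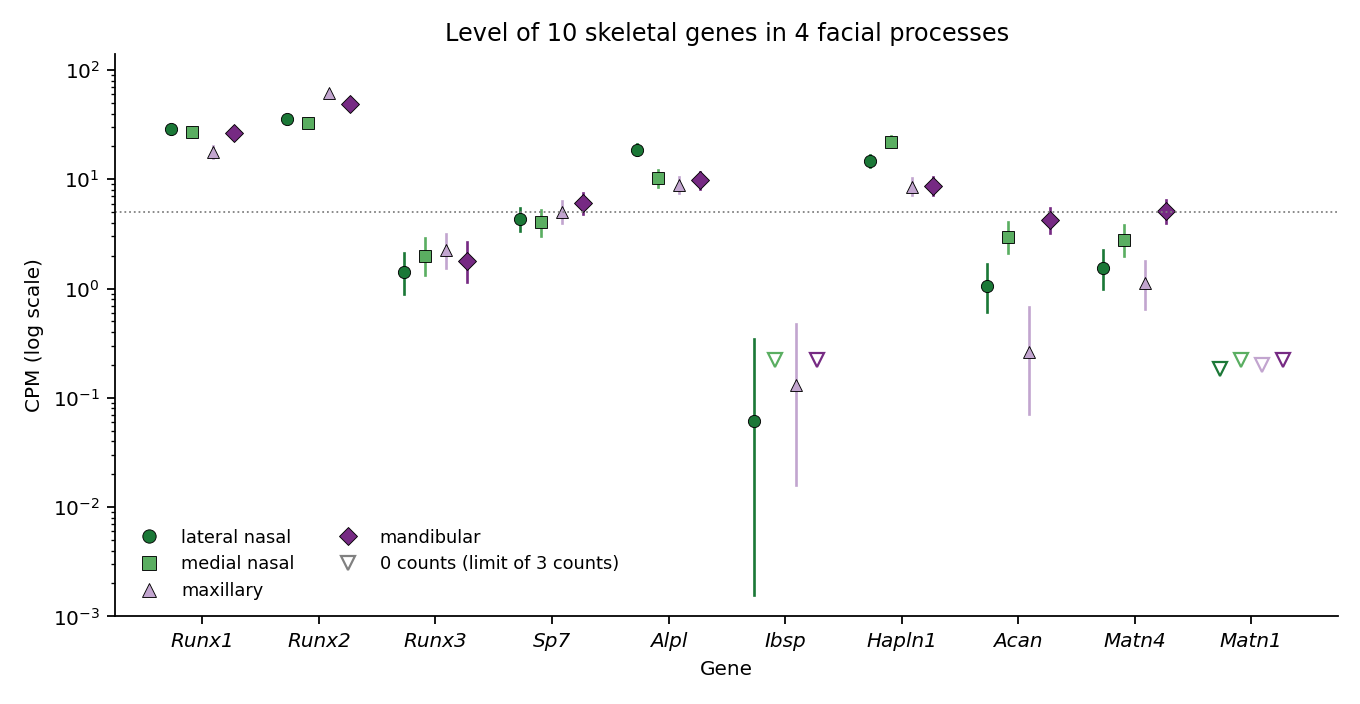
Levels of the 10 genes in CPM (log axis) in each of the 4 libraries, 1 point per library with its exact 95% Poisson interval. Open triangles give the limit of 3 counts for libraries with 0 counts, and the dotted line marks 5 CPM. Runx2 reaches 61.6 CPM in the maxillary library, Acan runs from 4.23 CPM in the mandibular to 0.263 CPM in the maxillary library, and Matn1 has no counts.

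To place these differences among all genes, a gene was called separated when its highest library reached 5 CPM and lay at least 2-fold above its lowest on the log2(CPM + 0.5) scale. Of the 10 genes, 6 reached 5 CPM and 3 of these, Hapln1, Matn4 and Alpl, were separated, against 9.69% of all genes at that level. Runx1, Runx2 and Sp7 were measured at 5 CPM and were not separated, and Runx3, Acan, Matn1 and Ibsp did not reach the level. Alpl and Matn4 sit close to a boundary, Alpl at 2.09-fold and Matn4 at 5.12 CPM. With the minimum at 1 CPM, 4 of 8 genes were separated, Acan being added, against 14.7%. With the deposited TPM in place of CPM, 3 genes reached the minimum and Runx2 and Alpl were separated, against 8.44%. Each library was also left out in turn, a setting chosen after the data had been seen. Without the medial nasal library, where Hapln1 was highest, Matn4 and Alpl were separated and Hapln1 was not, against 6.49%. Hapln1 and Matn4 remained separated, and Alpl did not, without the lateral nasal (7.89% of all genes) or the maxillary library (7.86%), and Hapln1 and Alpl, but not Matn4, without the mandibular library (6.75%).

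Whether a gene was particular to 1 process was read by a 2-fold rule. To be called higher in 1 process a gene had to reach 5 CPM in that library and exceed every remaining library 2-fold or more. To be called lower it had to reach 5 CPM in every remaining library and fall short of each of them 2-fold or more. By this rule 0 of 6 genes were called, against 2.81% of all genes. A count of 0 among so few genes cannot be told apart from so small a share, here or in the comparisons below. Alpl in the lateral nasal process, 1.83-fold above the next library, and Matn4 in the mandibular process, 1.82-fold above the next, came nearest. When 1 library was left out, Hapln1 was called higher in the medial nasal process without the lateral nasal library and Matn4 higher in the mandibular process without the medial nasal library. In both cases the library left out was the one with the next-highest level of the gene. Acan in the maxillary process lay 3.97-fold (1.3 to 16.2) below the lateral nasal level but did not reach the minimum.

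Between the nasal and the first arch processes, no gene had both libraries of one side 2-fold above both of the other, with 0 of 6 higher in the nasal processes against 1.12% of all genes and 0 of 6 higher in the first arch against 0.403%. The mean log2 levels nevertheless differed beyond counting error for several of them. Hapln1 had a mean log2(CPM + 0.5) of 4.22 in the nasal and 3.20 in the first arch libraries, a difference of 1.03 (0.82 to 1.24). Alpl averaged 3.84 in the nasal and 3.30 in the first arch libraries (difference 0.54, 0.32 to 0.75), and Runx1 averaged 4.83 and 4.47 (difference 0.36, 0.21 to 0.50), although in both cases 1 library stood apart from the other 3, the lateral nasal one for Alpl and the maxillary one for Runx1. Runx2 went the other way, with means of 5.12 in the nasal and 5.79 in the first arch libraries (difference -0.67, -0.78 to -0.56), as did Sp7 with 2.23 and 2.60 (difference -0.37, -0.68 to -0.06). The intervals of Runx3, Acan and Matn4 included 0.

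Within the nasal region, 4 of the genes reached 5 CPM and 0 of these differed 2-fold. Higher levels in the lateral process were found for 0.618% of all genes and higher levels in the medial process for 2.05%. Alpl was the only one higher in the lateral process beyond counting error, at 4.26 in the lateral and 3.42 in the medial nasal library on the log2(CPM + 0.5) scale (difference 0.84, 0.57 to 1.12). All 3 detected cartilage genes were lower in the lateral than in the medial process. Their differences were -0.57 (-0.81 to -0.33) for Hapln1, -0.70 (-1.28 to -0.12) for Matn4 and -1.16 (-1.76 to -0.56) for Acan. The intervals of the 4 transcription factor genes included 0, with Runx1 at 0.09 (-0.10 to 0.28) and Runx2 at 0.10 (-0.08 to 0.27).

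Within the first arch, Matn4 was the 1 gene of 6 called higher in the mandibular process, against 1.84% of all genes, and 0 of 6 were called higher in the maxillary process, against 0.909%. Matn4 stood at 2.49 in the mandibular and 0.70 in the maxillary library on the log2(CPM + 0.5) scale (difference 1.80, 1.23 to 2.36). Acan stood at 2.24 in the mandibular and -0.39 in the maxillary library (difference 2.63, 2.04 to 3.22). The added 0.5 CPM holds down this difference and its approximate interval, as the direct ratio of 16.1-fold (5.94 to 61) shows. Runx1 and Runx2 lay in opposite directions, Runx1 with a difference of 0.56 (0.34 to 0.79) and Runx2 with -0.33 (-0.47 to -0.19). Alpl, Hapln1, Runx3 and Sp7 had intervals that included 0, and for Hapln1 the interval was -0.31 to 0.37.

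**Figure D4:**
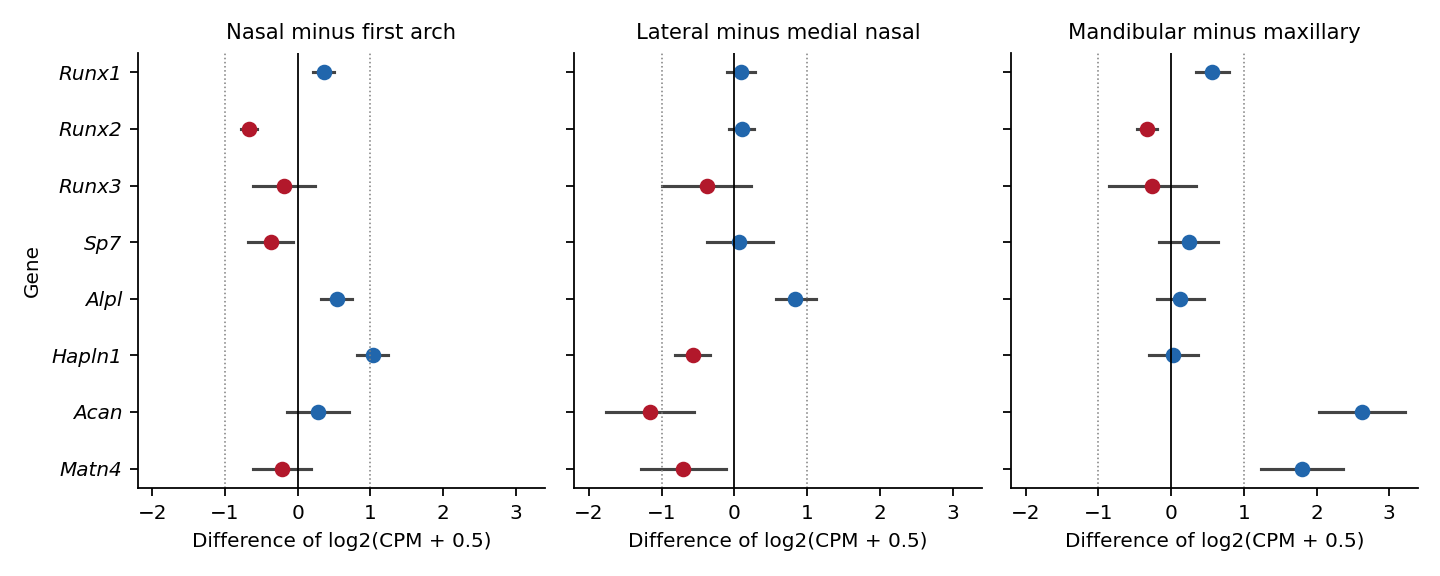
Differences of log2(CPM + 0.5) for the 8 genes with at least 1 CPM in a library, for nasal minus first arch, lateral minus medial nasal and mandibular minus maxillary processes, with 95% counting intervals as lines. Dotted lines mark a 2-fold difference. Hapln1 lies at 1.03 and Runx2 at -0.67 in the first panel, Alpl at 0.84 in the second, and Acan at 2.63 and Matn4 at 1.80 in the third. The added 0.5 CPM holds down the Acan value and its interval in the third panel.

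Many other skeletal regulators were separated between processes. Among 20 transcription factors listed for the osteoblast lineage, 12 of the 19 that reached 5 CPM were separated, against 9.69% of all genes. Their median difference between nasal and first arch was -0.19, against -0.01 over all genes. This list and the other gene lists were chosen with earlier results of these data known, so their shares describe the lists alone. Osr1, a regulator of mesenchymal progenitors, stood at 58.3 CPM (mandibular), 35.2 CPM (maxillary), 11.4 CPM (lateral nasal) and 4.36 CPM (medial nasal). Osr2, a palate regulator, had its highest level of 25.8 CPM in the maxillary process, with 12.1 CPM (mandibular), 4.43 CPM (medial nasal) and 3.32 CPM (lateral nasal). Dlx5, which acts upstream of Sp7 in osteoblasts, reached 17.4 CPM in the mandibular process against 2.77 CPM in the lateral nasal process, and its neighbour Dlx6 reached 32.2 and 4.06 CPM in these. Twist2, whose product restrains Runx2, reached 61.3 CPM in the maxillary process against 10.6 CPM in the medial nasal process.

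Among 20 regulators of the chondrocyte lineage, 12 of the 17 that reached 5 CPM were separated, against 9.69% of all genes at that level. Their median difference was -0.02 between nasal and first arch and -0.50 between the lateral and medial nasal processes. Over all genes these medians were -0.01 and 0.01. This list, too, was chosen with earlier results of these data known. Sox9, the factor that starts the chondrocyte program and activates Acan and Hapln1, stood at 113 CPM (medial nasal), 40.7 CPM (lateral nasal), 31.8 CPM (mandibular) and 18.7 CPM (maxillary). Its order was that of Hapln1, whose mandibular and maxillary levels could not be separated. Sox9 shared with Acan and Matn4 the lowest level in the maxillary process. Acan and Matn4, however, were highest in the mandibular process, where Sox9 was below both nasal levels. The medial nasal library also had the largest sums of brain neuroepithelium and sensory neuron markers, whose part in the Sox9 level was not tested. Foxc1 stood at 60.5 CPM in the medial nasal and 10.2 CPM in the maxillary process and Foxc2 at 12.3 and 2.83 CPM in these. Barx1 stood at 120.0 CPM (mandibular) and 119 CPM (maxillary), nearly equal, against 15.3 CPM (lateral nasal) and 7.76 CPM (medial nasal). Barx2 stood at 5.05 CPM (mandibular, 68 counts), 3.16 CPM (maxillary, 48 counts), 2.71 CPM (lateral nasal) and 0.443 CPM (medial nasal, 6 counts). Pax1 reached 23.6 CPM in the maxillary against 2.07 CPM in the medial nasal process.

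**Figure D5:**
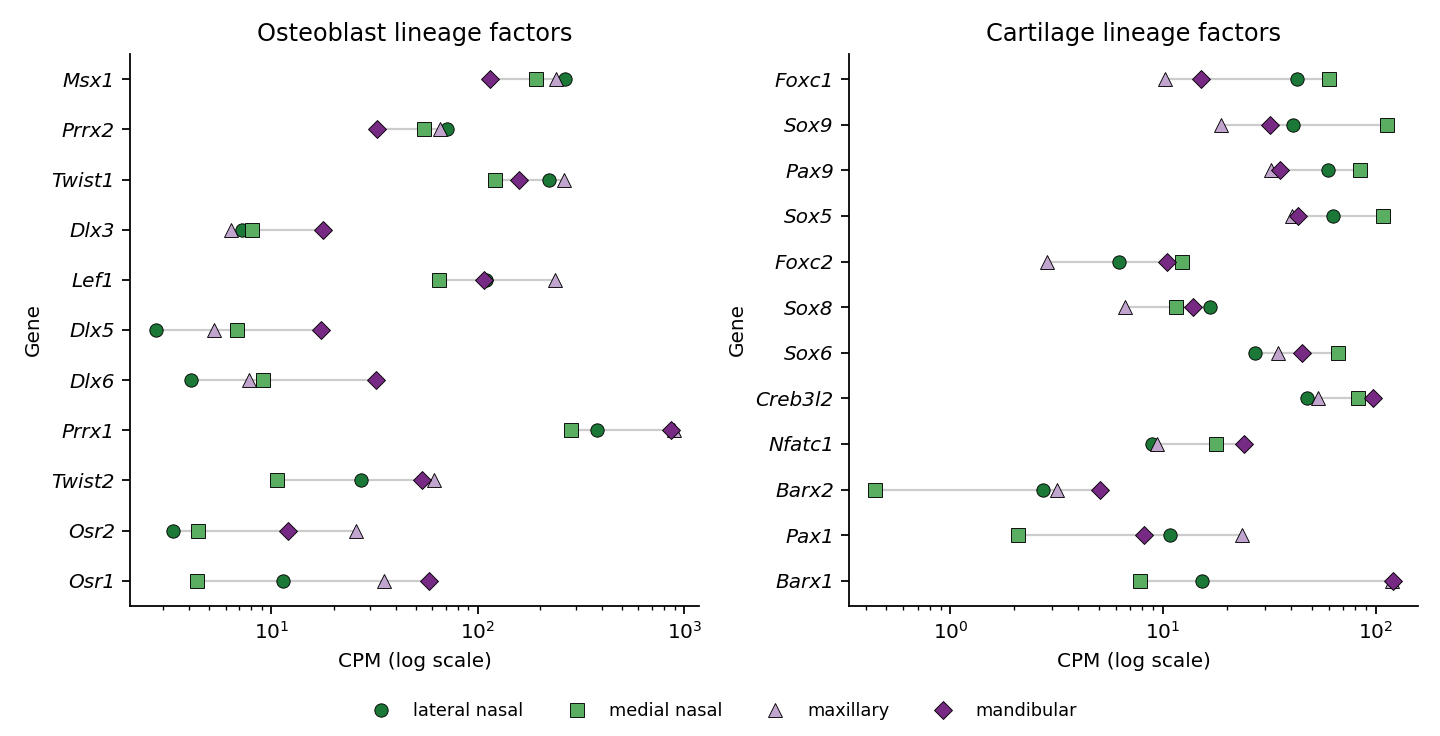
Levels in CPM (log axis) of 11 of the 12 osteoblast lineage factors (left) and of the 12 chondrocyte lineage factors (right) that were separated, 1 point per library, with genes in order of the nasal minus first arch difference from top to bottom. Sox9 reaches 113 CPM in the medial nasal library against 18.7 CPM in the maxillary library, and Osr1 reaches 58.3 CPM in the mandibular library against 4.36 CPM in the medial nasal library.

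Of 19 further cartilage matrix genes found, 7 (36.8%) stayed below 1 CPM in all libraries, against 62.8% of all genes, and of the 4 that reached 5 CPM only Matn2 was separated, against 9.69% of all genes at that level. Versican (Vcan), the lectican of loose embryonic matrix, was the most abundant relative of Acan, at 1775 CPM in the medial nasal and 1606 CPM in the maxillary process, a spread of 1.10-fold (1.09 to 1.12). The brain lectican Ncan stood at 24.5 CPM (medial nasal), 7.64 CPM (maxillary), 6.46 CPM (lateral nasal) and 4.16 CPM (mandibular), and was thus highest where the neuroepithelium markers were highest, whose part in it was not tested. Bcan, Hapln2 and Hapln4 stayed below 1 CPM and Hapln3 reached 1.17 CPM in the lateral nasal process.

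Of 23 further bone and mineralization genes found, 10 (43.5%) stayed below 1 CPM in all libraries, against 62.8% of all genes, and 3 of the 11 that reached 5 CPM were separated, against 9.69%. Of these, the matrix protein genes Postn and Tnn were higher in both first arch libraries than in both nasal ones by 2-fold or more. Postn had 92.1 CPM (lateral nasal) and 84.7 CPM (medial nasal) against 298 CPM (maxillary) and 245 CPM (mandibular), and Tnn had 3.39 and 4.29 CPM against 28.7 and 20.3 CPM. Enpp1, which makes the pyrophosphate that the Alpl product removes, stood at 5.66 CPM (lateral nasal), 4.95 CPM (medial nasal), 3.04 CPM (mandibular) and 1.78 CPM (maxillary). Its lateral and medial nasal levels, 1.14-fold (0.826 to 1.59) apart, could not be separated, unlike those of Alpl.

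The protein-coding genes whose pattern was most like that of each gene were found by the Euclidean distance of the 4 log2(CPM + 0.5) values from their mean, among 11513 genes (11514 for Runx3) with at least 5 CPM in a library. With 4 libraries many genes lie close by, and the distance is a description. Sorl1 was nearest to Runx1 (distance 0.04), followed by Erap1 and Etv4, and 36 genes lay within 0.2. Lama3 was nearest to Runx2 (0.04), followed by Btbd11 and Eva1b, with 13 within 0.2. Fosl2 was nearest to Sp7 (0.03), followed by Dact1 and Zfp275, with 174 within 0.2, and Greb1 was nearest to Runx3 (0.05), followed by Sema6d and Sh3d21, with 94 within 0.2.

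Slain1 was nearest to Hapln1 (0.05), with 17 genes within 0.2, followed by Prr36 and by the chondrocyte lineage factor Pax9, which stood at 84.0 CPM (medial nasal), 59.4 CPM (lateral nasal), 35.4 CPM (mandibular) and 32.3 CPM (maxillary). Only 2 genes lay within 0.2 of Matn4, Ebf2 (0.13) and Mtus2 (0.19), and the next was Nr2f2 (0.25). Rarb, a retinoic acid receptor gene, was nearest to Alpl (0.15) and stood at 87.0 CPM (lateral nasal), 44.6 CPM (medial nasal), 45.0 CPM (mandibular) and 45.4 CPM (maxillary). It was followed by Rcl1 and Abca8b, with 4 genes within 0.2 of Alpl. Runx3 was compared although it stayed below 5 CPM, because the comparison was made for all 4 transcription factor genes and, among the others, for those that reached 5 CPM, which left out Acan, Matn1 and Ibsp.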

How the data were processed

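Bulk RNA-seq of 4 WT facial processes at e11.5 was analysed, with 1 library each. The authors removed ribosomal RNA, made strand-specific libraries from the total RNA and sequenced 50 bp from 1 end. STAR was used for alignment to mm10, and RSEM 1.4.1 with GENCODE M4 for quantification. The deposited table holds expected counts without normalization, and the deposited TPM are corrected for length and isoform mix. The authors also deposited posterior mean counts and TPM intervals, whose level is not given in the sources used here.

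Expected counts of 43346 genes were rounded to whole numbers, so that an estimated count can differ slightly from the one used, and 96 spike-in and 26248 number-only entries were left out. Symbols and positions were taken from GENCODE M21 (GRCm38), sequences from RefSeq (GRCm38.p6). TMM factors (edgeR 4.0.16) were computed over genes with at least 10 counts in a library, and log2 values after adding 0.5 CPM. The intervals are exact Poisson intervals for levels, exact binomial (Clopper-Pearson) intervals for ratios and delta-method intervals for log2 differences. No p-value was computed, since each group had 1 library. The calls were checked on simulated counts. The members, gene lists and rules were chosen with earlier results of these data known. Genes named beside the 10 were up to 6 separated genes per list in order of their fold, related gene families, the 3 nearest in pattern to each, and marker genes that describe a library; Cbfb, Runx1t1, Tle2, Trps1 and Vcan were chosen after their values were seen. The results of 2 genes of the lists are not reported here by name. The alternatives were DESeq2 1.42.0 size factors, total counts, protein-coding genes alone, TPM, posterior mean counts, other pseudocounts, minimum levels and a 3-fold threshold. The authors' other data, including human samples, were not used here.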

Additional observations from a re-analysis of the deposited data

How the results depend on the processing

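Under DESeq2 size factors, total counts, protein-coding genes alone and posterior mean counts, each count of members called stayed within 1.5 times its value, and 8 of 10 genes exceeded 1 CPM. The 3 separated genes became 1 with a 20 CPM minimum (Hapln1) and 1 with a 3-fold threshold (Matn4), and with a pseudocount of 2 they were Hapln1 and Matn4. With a 1 CPM minimum or none, 1 gene (Acan, lower in the maxillary process) was called for a single process, 1 (Acan) between the nasal processes and 2 (Acan and Matn4) between the mandibular and maxillary processes. The mandibular call became 0 with TPM and 0 with a 20 CPM minimum. Of the settings without 1 library, chosen after the data had been seen, 1 gene was called for a single process without the medial nasal library (Matn4, mandibular) and 1 without the lateral nasal library (Hapln1, medial nasal). Over all genes 1202 were separated, against 2370 with a 1 CPM minimum, 467 with 20 CPM, 2809 with none, 586 at 3-fold and 789 without the medial nasal library. Of 168 recomputed differences of single genes, 162 stayed within the counting interval and 6 moved beyond it. The sign turned in 1, Runx3 between nasal and first arch (-0.19, and 0.10 on TPM), whose interval included 0. Among the 6 was Acan between the mandibular and maxillary processes (3.57 with a pseudocount of 0.1, 1.46 with 2 and 0.92 on TPM). The 0.5 was also added to the TPM, which were 0.50 (mandibular) and 0.03 (maxillary), and their direct ratio was 16.7-fold. No paired analysis was possible because each process had 1 library, so no replicate could be left out within a group. Depth limits Acan in the maxillary process (4 counts), Runx3, Matn1 and Ibsp.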
